A study of Mus musculus with 2 samples.

Results

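The SLAM family receptors and their adaptors were examined in TCRαβ+ CD8αα+ intraepithelial lymphocytes (IELs) of the mouse small intestine. They were taken by name, as 7 receptor genes (*Slamf1*, *Cd48*, *Ly9*, *Cd84*, *Slamf6*, *Slamf7* and *Cd244*) and 2 adaptor genes (*Sh2d1a* and *Sh2d1b1*), among 20887 genes that the arrays name. Through their RefSeq accessions, 13 probes matched these 9 genes, and *Cd244* was matched under its current symbol, *Cd244a*. The rule used no measured value.

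RNA was compared between C57BL/6 mice with a floxed *Rbpj* gene (Control, genotype Rbpjf/f) and mice that also carry the CD4-Cre transgene (RFF4, genotype CD4-Cre Rbpjf/f), males and females pooled, at 8 to 12 weeks of age per the labels. Rbpj is the DNA-binding factor through which Notch receptors act, and CD4-Cre is active in T cells from the CD4+CD8+ stage of the thymus, so the deletion is not limited to IELs. The paper describes the control mice instead as Rbpj+/+ with CD4-Cre, so whether the controls carried Cre is not settled by the sources. Cells were sorted as TCRβ+ and CD8α+ but negative for TCRγδ, CD4 and CD8β, RNA of several isolations was pooled, and 1 Agilent array of 1 color was hybridized per genotype. Each group being 1 array, the differences compare these 2 pools and carry neither a p-value nor an error between mice.

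SLAM receptors are immunoglobulin-type proteins on blood-derived cells, and most bind a copy of themselves on the neighboring cell. The exceptions in this group are CD244 and CD48, which bind each other. Tyrosine motifs in the receptor tails recruit the small SH2 adaptors SAP, encoded by *Sh2d1a*, and EAT-2, encoded by *Sh2d1b1*. SAP brings in the kinase Fyn, and when adaptors are missing the same tails can bind inhibitory phosphatases. In T cells the SLAM and SAP pathway is known for its part in the selection of innate-like lymphocytes that express PLZF, the product of *Zbtb16*.

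Levels are given as the log2 signal of a probe relative to the 75th percentile of its array, and differences as the array labelled RFF4 minus Control on the log2 scale. Since probes bind with different strength, the level of a gene was compared only within a probe. For a gene with 2 probes the brighter was used, and for each SLAM gene the other is given beside it. The technical SD of a difference was taken from probes printed 10 times on each array. It was 0.28 for probes with a mean level below −2, 0.11 between −2 and 2, and 0.064 above 2, and it does not cover variation between mice or isolations. A difference above 2-fold was counted as called.

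The gene spots well above background made up 57.2% on the Control array and 49.7% on the array labelled RFF4, none was saturated, and all 13 SLAM probes were well above background on both. The *Rbpj* signal was not lower on the array labelled RFF4. Its brighter probe read 1.96 on the Control array and 2.28 on the other, a difference of 0.32, and its dimmer probe differed by 0.82. Where these probes lie relative to the deleted part is not given in the sources used here, so the signal does not check the genotype, and below the array is called the array labelled RFF4.

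For 8 of the 9 SLAM genes the signals of the arrays lay within 2-fold of each other. Of the 9 genes, 1 (*Slamf1*) was more than 2-fold lower on the array labelled RFF4 and 0 were more than 2-fold higher, beside a background of 5.05% (lower) and 12.3% (higher) of the 13513 genes with a difference. By sign, 6 differences lay below 0 and 3 above, where of all genes 6906 lay below and 6607 above. The signs of *Cd48* and *Cd244* carry no weight, since both lay within 1 technical SD of 0, and 7 of the 9 lay below 0 under 5 alternatives and all 9 under spike-in scaling. The median over the 9 genes was −0.33, and over all genes with a difference it was −0.015. Over the alternatives the SLAM median ranged from −1.44 to −0.18. The SLAM genes more than 2-fold lower ranged from 0 to 7, beside 482 to 7909 of all genes. The largest differences were those of *Slamf1*, *Sh2d1b1* and *Slamf7*, all lower on the array labelled RFF4, while those of *Cd48* and *Cd244* were the smallest. In a pool of sorted cells, a smaller share of cells that express a gene and less of its RNA per cell cannot be told apart.

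**Figure D1:**
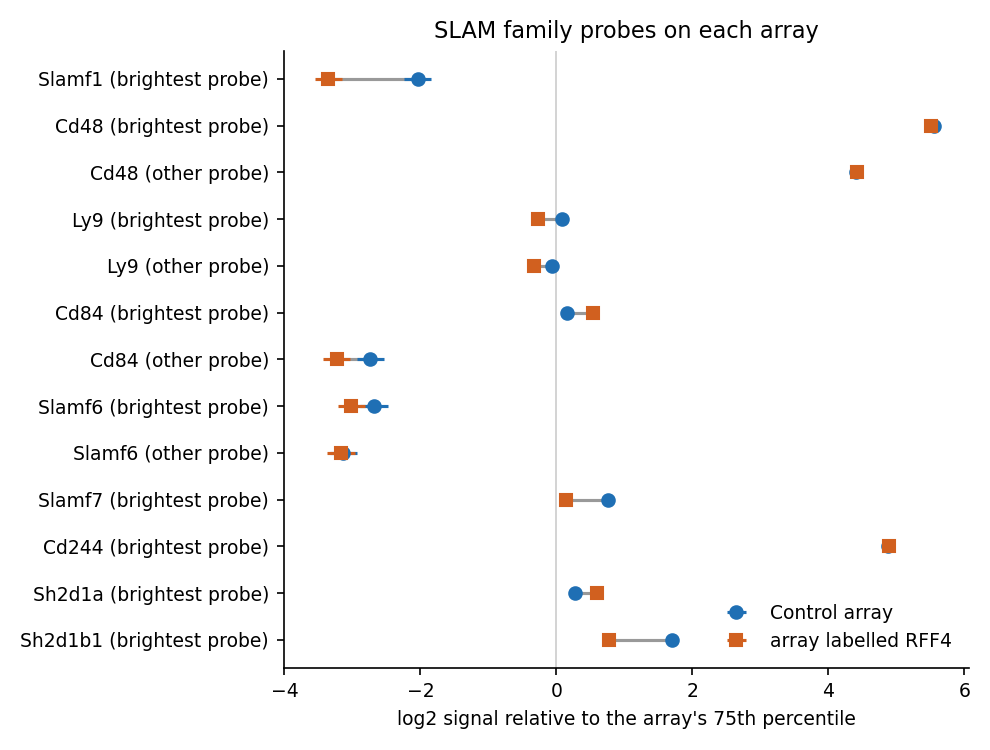
Log2 signal of the 13 SLAM probes relative to the 75th percentile of each array, for the Control array (circles) and the array labelled RFF4 (squares), with bars for the technical SD of 1 spot at that level. The *Slamf1* symbols lie farthest apart, at −2.04 and −3.35, and those of *Cd48* and *Cd244* overlap.

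Among the receptors, *Slamf1* showed the largest difference. It encodes SLAM (CD150), a self-binding receptor of activated T cells, B cells and macrophages. Its only probe gave a background-subtracted signal of 124 on the Control array and 22.2 on the array labelled RFF4. On the relative scale the level was −2.04 on the Control array and −3.35 on the other. The array labelled RFF4 was thus the lower by 1.31 on the log2 scale (2.49-fold), which is 4.62 times the technical SD for dim probes. Of all genes with a difference, 2.39% lay below this value. Among genes within 0.5 of the mean level of *Slamf1*, 7.6% were more than 2-fold lower. The spot was dim, with a signal 3.76 times its local background on the Control array and 0.522 times on the other. Normexp background correction subtracts the local background, models the background that remains and adds an offset of 50. With it the difference was −0.17 and the call was lost.

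The window before and at the start of *Slamf1* is shown with that of *Cd244*, because these are the members whose windows hold the core of the motif that Rbpj binds and because their differences lie far apart, at −1.31 and 0.01. The windows were taken from RefSeq, assembly GRCm38.p6, and run from 250 bases before to 50 bases after the gene start on the plus strand, chr1:171766882-171767181 for *Slamf1* and chr1:171558943-171559242 for *Cd244*. Capitals mark TGGGAA or its reverse complement.
Slamf1: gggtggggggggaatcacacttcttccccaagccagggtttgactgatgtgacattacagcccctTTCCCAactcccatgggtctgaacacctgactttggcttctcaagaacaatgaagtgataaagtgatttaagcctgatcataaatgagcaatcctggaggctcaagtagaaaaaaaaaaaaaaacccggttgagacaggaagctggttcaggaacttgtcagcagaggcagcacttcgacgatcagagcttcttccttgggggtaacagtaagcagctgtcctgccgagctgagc
Cd244: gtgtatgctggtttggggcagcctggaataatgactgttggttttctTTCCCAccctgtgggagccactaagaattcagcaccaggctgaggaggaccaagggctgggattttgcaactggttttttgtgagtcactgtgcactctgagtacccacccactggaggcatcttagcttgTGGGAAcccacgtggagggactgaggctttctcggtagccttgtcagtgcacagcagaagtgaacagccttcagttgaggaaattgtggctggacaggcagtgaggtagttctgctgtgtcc
The *Slamf1* window holds the motif 1 time, in reverse, at position −185 from the gene start, and the *Cd244* window holds it 2 times, in reverse at −203 and forward at −72. Both copies in *Cd244*, and none in *Slamf1*, extend to GTGGGAA. Windows were at hand for 7 of the 9 genes, not for *Ly9* and *Sh2d1a*, and those of *Cd48*, *Cd84*, *Slamf6*, *Slamf7* and *Sh2d1b1* hold no TGGGAA on either strand. Of 32851 promoter windows of this length, 25.6% hold TGGGAA and 6.38% hold GTGGGAA on either strand, and every GTGGGAA also counts as a TGGGAA. A match of letters is a description, and no binding was measured.

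*Cd48* and *Cd244*, the pair of binding partners, had strong signals that differed by little as scaled here. CD48 is a lipid-anchored surface protein found on most leukocytes. The brighter *Cd48* probe read 5.56 on the Control array and 5.51 on the array labelled RFF4, a difference of −0.05. Its other probe read 4.41 and 4.43, a difference of 0.014. Both values lie within 1 technical SD of 0. CD244 (2B4) is a receptor of NK cells and of CD8+ T cells that resemble them. Its probe read 4.88 on the Control array and 4.89 on the other, a difference of 0.0092. The signals stood 469 times above local background for *Cd244* and 708 times for *Cd48* on the Control array. The small differences moved with the processing. *Cd48* was lower by more under median scaling (−0.23), cyclic loess (−0.23), quantile normalization (−0.25), normexp correction (−0.28) and spike-in scaling (−1.16). *Cd244* moved to −0.17 with median scaling, −0.12 with cyclic loess, −0.18 with normexp correction and −1.10 with spike-in scaling.

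*Slamf7* encodes CRACC, a self-binding receptor of NK cells, plasma cells and macrophages that signals through EAT-2 rather than SAP. Its probe read 0.75 on the Control array and 0.14 on the array labelled RFF4. The difference of −0.62 (1.53-fold) is 5.71 times the technical SD but below 2-fold. *Ly9* (CD229), a receptor of T and B cells, read 0.081 on the Control array and −0.28 on the other with the brighter probe, a difference of −0.36. Its other probe differed by −0.26, so both were lower on the array labelled RFF4.

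For *Cd84* and *Slamf6* the direction was not settled. CD84 is a self-binding receptor of B cells, T cells, platelets and macrophages. Its brighter probe read 0.16 on the Control array and 0.54 on the array labelled RFF4, a difference of 0.38, while its dimmer probe read −2.73 and −3.23, a difference of −0.50. The probes of *Cd84* thus point opposite ways, and their mean differed by −0.059. *Slamf6* encodes Ly108, the receptor tied most closely to SAP in thymic selection of innate-like T cells. Its brighter probe read −2.68 on the Control array and −3.01 on the other, a difference of −0.33, and its other probe differed by −0.033. Both *Slamf6* probes were dim, the larger difference is 1.16 times the technical SD, and with normexp correction the sign turned, to 0.36.

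The adaptors differed unequally. *Sh2d1a* encodes SAP, which couples most SLAM receptors to Fyn. Its probe read 0.27 on the Control array and 0.59 on the array labelled RFF4, a difference of 0.32, or 2.98 times the technical SD. *Sh2d1b1* encodes EAT-2, the adaptor best known from NK cells, where it couples SLAM receptors to phospholipase Cγ. Its probe read 1.71 on the Control array and 0.78 on the other, from signals of 1665 and 389 after background subtraction. The difference of −0.93 (1.90-fold) is 8.59 times the technical SD, the largest multiple among the 13 probes, and 6.03% of all genes with a difference lay below it. The adaptors were also set against each other, a comparison chosen after their values were seen, because a ratio within each array does not depend on the scaling constant. *Sh2d1b1* relative to *Sh2d1a* was lower on the array labelled RFF4 by a log2 difference of −1.25, with a technical SD of 0.15, a 2.38-fold change of their ratio. Over 11 alternative settings this value ranged from −1.27 to −1.16. Each adaptor has 1 probe, so most settings could not move the ratio and left it at −1.25. Only cyclic loess, quantile normalization and normexp correction could move it. The value shows unequal change and not which of the adaptors changed.

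**Figure D2:**
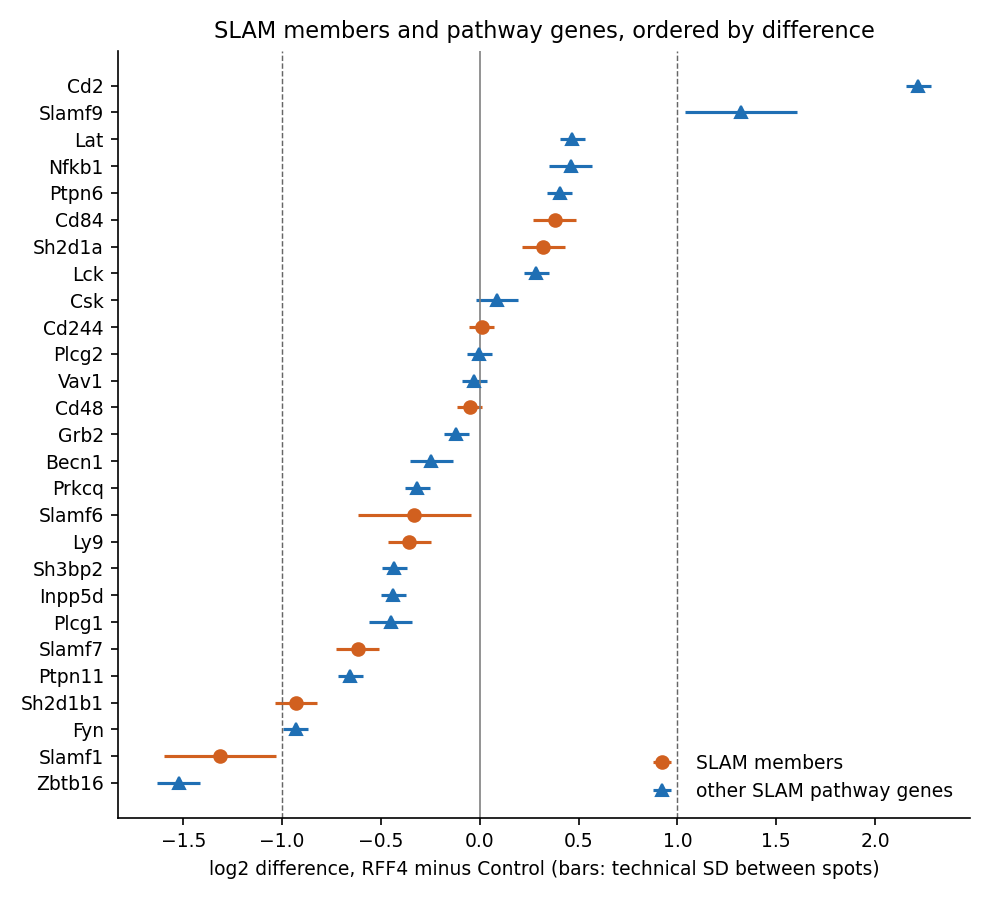
Log2 difference (array labelled RFF4 minus Control) of the 9 SLAM members (circles) and of the 18 other SLAM pathway genes with a difference (triangles), in order of value, with bars for the technical SD and dashed lines at 2-fold. *Slamf1* is the only circle beyond a dashed line, and *Zbtb16*, *Slamf9* and *Cd2* are the triangles beyond them.

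The other genes of the pathway were taken from a list of 20 relatives, ligands and signaling partners. Of these, 18 had a difference, 2 were higher by more than 2-fold and 1 was lower by as much, beside 12.3% and 5.05% of all genes. The median over the 18 was −0.074. *Slamf8* and *Sh2d1b2*, a receptor-like relative of myeloid cells and the gene next to *Sh2d1b1* that encodes a like adaptor, were not well above background on either array. *Slamf9*, another relative of myeloid cells, read −4.74 on the Control array and −3.42 on the array labelled RFF4, a difference of 1.32 close to the dim end of the scale. With spike-in scaling the *Slamf9* call was lost, and 1 pathway gene, *Cd2*, stayed more than 2-fold higher.

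*Cd2* had the largest difference of the list. It encodes the T cell adhesion receptor that in mice also binds CD48. Its brighter probe read 2.96 on the Control array and 5.18 on the array labelled RFF4. Its other probe, the mean of 10 spots, differed by 2.35. The difference of 2.22 (4.66-fold) places *Cd2* past 4-fold, as were 1.85% of all genes in this direction, and it was higher on that array under all 11 alternatives, with a lowest value of 1.11. Of the known partners of CD48, *Cd2* and *Cd244* therefore differed unequally. *Cd2* relative to *Cd48* was higher by 2.27, from 2.26 to 2.42 over the alternatives, a comparison again chosen after the values were seen. Only quantile normalization, cyclic loess, normexp correction and the mean of all probes moved this value, and the other settings left it at 2.27.

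*Zbtb16*, which encodes the transcription factor PLZF, was the gene of the list more than 2-fold lower. It read 1.31 on the Control array and −0.21 on the array labelled RFF4, a difference of −1.52 (2.88-fold), and was lower under all 11 alternatives, with values from −2.63 to −1.40.

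The kinases and phosphatases of the pathway lay within 2-fold as scaled here. *Fyn*, the kinase recruited by SAP, read 2.96 on the Control array and 2.03 on the array labelled RFF4, a difference of −0.93 (1.91-fold). Median scaling and spike-in scaling take *Fyn* past 2-fold, and spike-in scaling also takes *Ptpn11* and *Inpp5d* past it. *Lck*, the other Src-family kinase of T cells, read 8.16 and 8.45, a difference of 0.29. The log2 difference of *Fyn* relative to *Lck*, a pair also chosen with the values known, was −1.22, and it was −0.57 with quantile normalization and −0.76 with cyclic loess. The inhibitory phosphatases showed no common direction. *Ptpn6* (SHP-1) differed by 0.40, *Ptpn11* (SHP-2) by −0.65 and *Inpp5d* (SHIP-1) by −0.44. Among the genes further downstream, *Vav1* (−0.028), *Plcg2* (−0.0023), *Csk* (0.087) and *Grb2* (−0.12) lay nearest 0. *Plcg1* (−0.45), *Sh3bp2* (−0.43), *Prkcq* (−0.32) and *Becn1* (−0.24) were lower, and *Lat* (0.47) and *Nfkb1* (0.46) higher, all by less than 2-fold. The other *Nfkb1* probe differed by only 0.063.

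**Figure D3:**
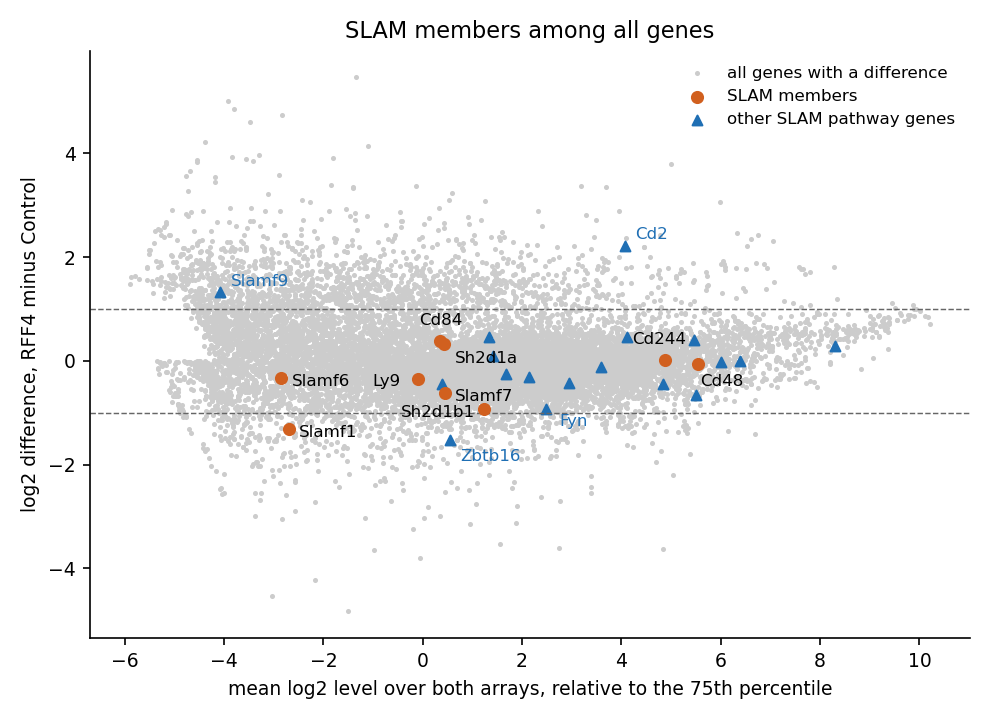
Log2 difference (array labelled RFF4 minus Control) against the mean log2 level over both arrays for the 13513 genes with a difference (gray), with SLAM members as circles, other SLAM pathway genes as triangles and dashed lines at 2-fold. All SLAM members but *Slamf1* (−1.31) lie between the dashed lines, *Sh2d1b1* (−0.93) just inside the lower one, and *Cd2* (2.22) is the highest triangle.

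The 7 receptor genes lie next to each other on chromosome 1. In the order of the GRCm38.p6 annotation they are *Cd244*, *Ly9*, *Slamf7*, *Cd48*, *Slamf1*, *Cd84* and *Slamf6*. Of the 15 annotated genes from the first to the last of them, 7 were named on the arrays, and these were the receptors. Their differences did not run with position. *Slamf1*, at −1.31, lies between *Cd48* at −0.05 and *Cd84* at 0.38. The nearest measured genes before the cluster were *Itln1*, which encodes an intestinal lectin of Paneth and goblet cells, at 1.88, and *Alyref2* at 0.51, and those after it were *Vangl2* at 0.69 and *Nhlh1* at −0.83.

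**Figure D4:**
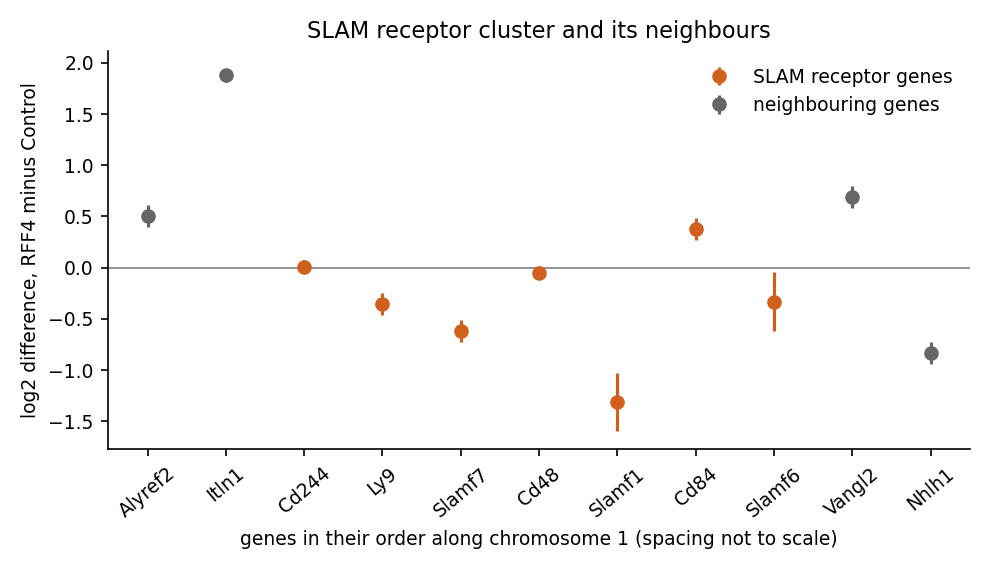
Log2 difference (array labelled RFF4 minus Control) of the 7 SLAM receptor genes and the 2 nearest measured genes on each side, in their order on chromosome 1, with bars for the technical SD. Values vary from gene to gene, with *Slamf1* lowest at −1.31 and *Itln1* highest at 1.88.

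SLAM genes are shared by many leukocytes, so markers of the cells that a sort of IELs could hold are given beside them. A gate on TCRβ and CD8α should remove cells other than T cells, and the study's methods state that purity was checked after the sort. Summed levels add probes of unequal strength, so the brightest gene of a list weighs most, and it is named where it decides the sum. The T cell list had 14 genes with a difference, of 15 listed, and a median of 0.22, which turned below 0 under spike-in scaling (−0.89), cyclic loess (−0.087) and quantile normalization (−0.19). Its summed level, in units of each array's 75th percentile signal, was 1371 on the Control array and 1639 on the array labelled RFF4. *Cd3e* read 8.10 and 8.44, and *Cd8a* read 6.24 and 6.18. Of the genes of T cell subsets that the sort left out, *Cd8b1* was dim at −3.52 on the Control array and not well above background on the other, but *Cd4* was well above background on both, at 1.67 and 1.80. *Ccr7*, a gene of circulating T cells, was 2.63-fold higher on the array labelled RFF4. The summed level of the 5 listed genes was 4.03 and 5.05, or 0.851 and 1.56 without *Cd4*, and their median of 0.70 turned to −0.40 with spike-in scaling.

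Markers of macrophages and dendritic cells, which express *Slamf7*, *Cd84*, *Cd48* and *Slamf9*, were higher on the array labelled RFF4 in 12 of 12 genes with a difference, of 14 listed, and 11 by more than 2-fold, with a median of 2.33, which was 1.29 with normexp correction and 1.13 with spike-in scaling. Their summed level was 56.3 on the Control array and 132 on the other, or 10.4 and 79.3 without the integrin gene *Itgax*. Of the defining genes, *C1qa* and *C1qc* were well above background only on the array labelled RFF4, *Fcgr1* only on the Control array, and *C1qb* and *Csf1r* on both. *Slamf9* was higher on the same array as these markers, while *Slamf7* was lower there. *Cd48* differed by little (−0.05), and the probes of *Cd84* pointed opposite ways (0.38 and −0.50). The part of other cells in these values was not tested. Of 9 genes of B and plasma cells, 6 had a difference and 4 were more than 2-fold higher, with a median of 1.35 (0.24 with spike-in scaling) and summed levels of 27.0 and 58.9, or 12.1 and 11.1 without *Jchain*, but *Cd79a* and *Pax5* were not well above background on either array. The 12 genes of intestinal epithelium were all higher, with a median of 1.60 (0.49 with spike-in scaling) and summed levels of 204 and 624. Of 7 genes of mast cells and granulocytes 6 had a difference, with a median of 2.16 (1.39 with normexp correction and 1.05 with spike-in scaling), and 5 were more than 2-fold higher while *Kit* was 2.75-fold lower. Their summed levels were 11.2 and 9.81, or 1.2 and 6.18 without *Kit*. Of 4 platelet genes, 0 had a difference.

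The NK cell list bears on *Sh2d1b1*, *Slamf7* and *Cd244*, which NK cells express. Of its 6 genes 5 had a difference, with a median of −0.35, which was 0.19 with the mean of all probes and −1.46 with spike-in scaling. Their summed levels of 396 and 600 were set by *Nkg7*, a granule gene also of T cells, and without it were 17.5 and 9.82. *Klrb1c*, which encodes NK1.1, read 1.35 on the Control array and −0.53 on the array labelled RFF4, a difference of −1.89. *Klre1*, another NK receptor gene, read 3.26 and 2.26, just past 2-fold. *Klra8* differed by −0.35, *Eomes* by 0.32 and *Nkg7* by 0.64, and *Ncr1*, the defining NK receptor gene, was not well above background on either array. The list thus had no common direction, and whether its signals come from NK cells or from the sorted T cells was not tested. The part of NK cells in the values of *Sh2d1b1* and *Slamf7* was not tested either.

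The size of all these differences rests on the scaling. Between the arrays 8 spike-in controls differed by −0.063 before scaling, and setting them equal shifts every gene by −1.11. With it all 9 SLAM genes were lower on the array labelled RFF4, 7 by more than 2-fold and *Cd84* (−0.73) and *Sh2d1a* (−0.78) by less. Of all genes, 7909 were then lower and 207 higher by more than 2-fold, where the 75th percentile gave 683 and 1667. Scaling to the median, a shift of −0.17, gave 1087 lower and 1318 higher, and *Sh2d1b1* at −1.10 then joined *Slamf1* as more than 2-fold lower. *Slamf1*, *Sh2d1b1*, *Slamf7* and *Ly9* were lower on the array labelled RFF4 under all 11 alternatives, several of which leave the members unchanged. *Cd48* was below 0 under all as well, but within 1 technical SD of it in several, as with the mean of all probes (−0.019). The order of the members relative to each other does not depend on a scaling constant.

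**Figure D5:**
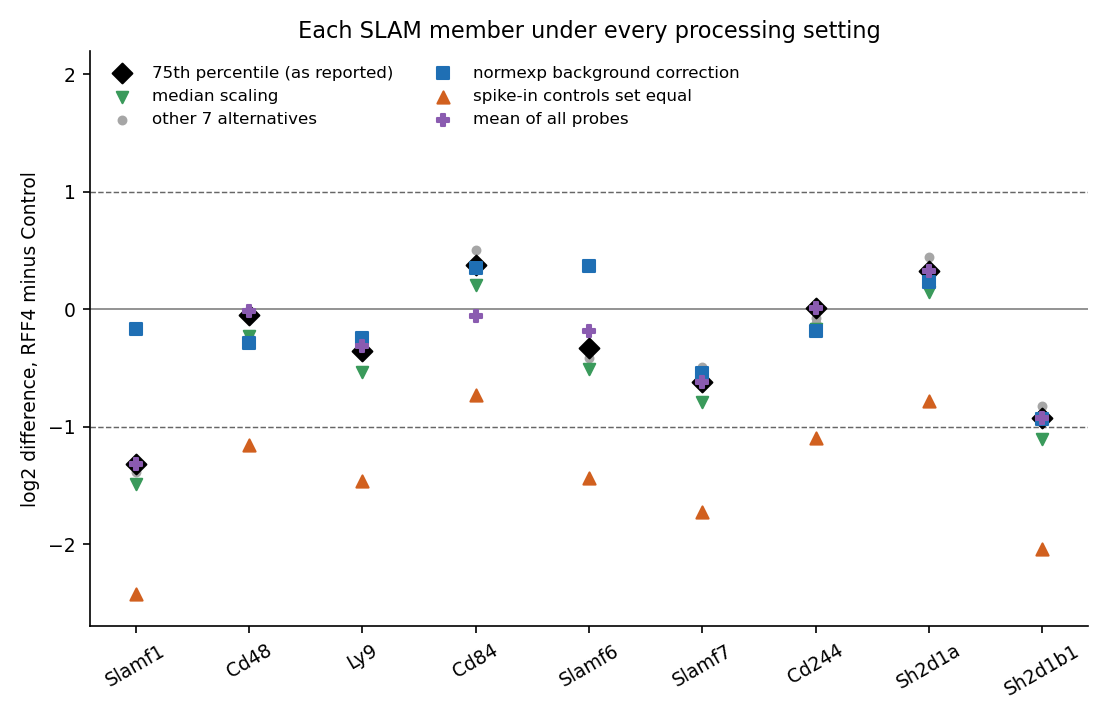
Log2 difference (array labelled RFF4 minus Control) of each SLAM member as reported (diamonds) and under 11 alternative settings, with dashed lines at 2-fold. *Sh2d1b1* and *Slamf7* move mainly with the scaling constant, *Slamf1* moves to −0.17 and *Slamf6* to 0.36 with normexp correction, and *Cd84* moves to −0.059 with the mean of its probes.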

How the data were processed

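RNA of sorted IELs, pooled within each genotype, was labelled with Cy3 from 150 ng and hybridized to 1 array of 1 color per genotype. The deposited intensity values are spot signals from which the authors' scanner software, Agilent Feature Extraction 10.7.1.1, had subtracted background, on a linear scale with no normalization between arrays. Both arrays were on the same slide and scan. A second table, centered log2 values that the authors made in GeneSpring with settings not given in the sources used here, served as an alternative. The header of the scanner files names build mm9, so no coordinate of the arrays was used.

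Here log2 signals were scaled to the 75th percentile over gene spots (8.99 for Control, 7.82 for RFF4). Spots of controls and those marked as outliers were dropped, and repeats of a probe averaged. Of 55679 probes, 27509 were named through RefSeq accessions of GRCm38.p6, and the probe with the highest mean level stood for its gene. Genes not well above background on either array got no difference. For genes well above it on 1 array only, that value was set against the gene's own value on the other array or, if higher, that array's lowest signal to pass, which gives a bound, as for 558 of 13513 genes and for none of the SLAM genes. Where the value well above background was not the higher of the pair, no difference was given (711 genes). Each SLAM probe has 1 spot per array. The technical SD came from 196 gene probes with 10 spots.

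The text names the 9 members, the pathway list, markers that stand beside a member, *Rbpj* and the nearest measured genes around the cluster. Single values of some marker genes are not reported here. Members and lists were chosen with earlier results of these data known. Calculations used Python 3.11.15 with numpy 2.4.6 and pandas 2.3.3, R 4.3.3 with limma 3.58.1 for normexp (on median spot signals), quantile normalization and cyclic loess among 11 alternatives, and matplotlib 3.10.9. The steps were tested on simulated data.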

Additional observations from a re-analysis of the deposited data

How the results depend on the processing

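No paired analysis was possible because each genotype has 1 array, and no array could be left out. Of the 11 alternatives, the authors' normalized table, genes well above background on both arrays, plain ratios without bounds, outlier spots kept, and no filter and no bound moved none of the 9 SLAM genes by more than 0.13, the technical SD over all levels. Without filter and bound, 4 pathway genes and 6272 of all genes were more than 2-fold higher, since genes at background are then included. Median scaling and spike-in scaling shift every gene by a constant. Median scaling gave 2 SLAM and 2 pathway genes more than 2-fold lower, 1087 of all genes lower and a SLAM median of −0.51. Spike-in scaling gave 7 SLAM genes, 12 pathway genes and 7909 of all genes lower, 1 pathway gene and 207 of all genes higher, and a SLAM median of −1.44. Normexp correction gave 0 SLAM genes and 2 pathway genes more than 2-fold lower, beside 482 of all genes lower and 1212 higher, and a SLAM median of −0.18. It turned *Slamf1* relative to *Cd48*, −1.26 as scaled here, to 0.12. The mean of all probes gave a SLAM median of −0.18. Cyclic loess moved 2 of the 9 SLAM genes (*Cd48* and *Cd244*) by more than this SD and quantile normalization moved 1 (*Cd48*). Held to the SD of their own level, which is smaller, *Ly9*, *Cd84*, *Slamf7*, *Sh2d1a* and *Sh2d1b1* also moved with cyclic loess and *Cd244* with quantile normalization. The cause was not tested for normexp, loess or quantile normalization. Low signal limits *Slamf1*, *Slamf6* and the dimmer *Cd84* probe, whose signals on the array labelled RFF4 lay between 0.522 and 0.701 times local background.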
